A study of Homo sapiens with 2 samples.

Results

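The genes of the proteasome and of the COP9 signalosome were compared between parental H6c7 cells, which derive from human pancreatic duct epithelium and are immortalised, and H6c7 cells expressing an introduced K-ras oncogene. Members were the genes whose symbol follows the proteasome pattern (PSM, a letter from A to G and a digit) or the signalosome pattern (COPS and a digit), on probe sets of the Affymetrix U133A array that carry exactly 1 gene symbol. This found 49 of the 11963 genes so named on the array. PSMC3IP, a recombination cofactor, and PSME3IP1 matched by name alone and are no subunits, which leaves 47 genes, 39 of the proteasome and 8 of the signalosome. PSMA6, PSMA8, PSMB11, PSMC5, PSMD7, PSMD13, PSMG3, PSMG4 and COPS9 were not analysed here as members, and neither was PSME2, whose probe set also carries a microRNA's name.

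RNA of each line was measured on 1 array. H6c7 cells are known to carry papillomavirus genes, which both lines share, so both are immortalised. The labels give no mutation, vector, vector control, clone or pool for the K-ras cells, and no treatment or time. There was thus no replicate, no spread between samples and no test. Differences between cultures or RNA preparations cannot be told apart from an effect of the oncogene. In bulk RNA, fewer cells of a kind and less RNA per cell cannot be told apart either.

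The proteasome degrades proteins tagged with ubiquitin. Its 20S core is a barrel in which rings of alpha subunits gate the entrance and rings of beta subunits cut the substrate. A cap of ATPase and non-ATPase subunits binds ubiquitin, removes it and unfolds the substrate, while separate activators open the core without ubiquitin. Interferon exchanges 3 beta subunits for those of the immunoproteasome, which shape peptides for MHC class I. The COP9 signalosome, built like the lid of the cap, removes the ubiquitin-like protein NEDD8 from cullins and so controls the cullin ubiquitin ligases that feed the proteasome.

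The arrays were alike in overall scale, with median signals of 43.9 (parental) and 46.9 (K-ras). A signal of 46.9 was used as the floor, below which a signal was not read as a level. The 3′ to 5′ signal ratio of the control probe sets for beta-actin was 1.28 in parental and 1.10 in K-ras cells, and that for GAPDH was 0.82 and 0.89. Of 10 listed duct and simple epithelial markers, 9 were on the array under a single gene symbol. Of these, 8 were above the floor in parental and 7 in K-ras cells, with summed signals of 18488 and 16978. The chloride channel CFTR stayed under the floor on each array. Of the markers of other cells, 2 of 6 fibroblast genes passed the floor in parental and 3 in K-ras cells (summed signals 223 and 271). Leukocyte and endothelial markers were above it for 1 gene each, CD3D and PECAM1, on the K-ras array alone. No acinar or endocrine marker was above it on either array. Only 2 of 4 listed acinar and 3 of 5 listed leukocyte genes were present under a single symbol, so the rest were not seen.

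All 49 members were measured, meaning above the floor on at least 1 array. The K-ras cells had lower levels of many of these transcripts and at least 2-fold higher levels of none. Of the 47 subunits and assembly genes, 16 (34%) were at least 2-fold lower in K-ras cells and 31 were within 2-fold. The genes matched by name alone were within 2-fold too, PSMC3IP at 199 and 216 (with a log2 ratio of -0.68 in another probe set) and PSME3IP1 at 134 and 115. Among all 7693 measured genes, 14.4% were at least 2-fold lower and 9.97% at least 2-fold higher. Members are brighter than most genes, but among the 1417 measured genes with a mean signal of 320 to 999, the middle range of the members, 15.5% were at least 2-fold lower. The median log2 ratio of K-ras over parental signal was -0.51 over the 47 genes and 0.10 over all measured genes. The 16 lower genes had parental signals of 350 to 1424 with a median of 802, close to the median of 809 among the other 31. On the K-ras array their signals ran from 25.3 to 489 with a median of 250, against a median of 858 for the other 31. The others ran from 126 to 2440 there, so the ranges overlapped, and the lower medians follow from how the genes were counted.

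**Figure D1:**
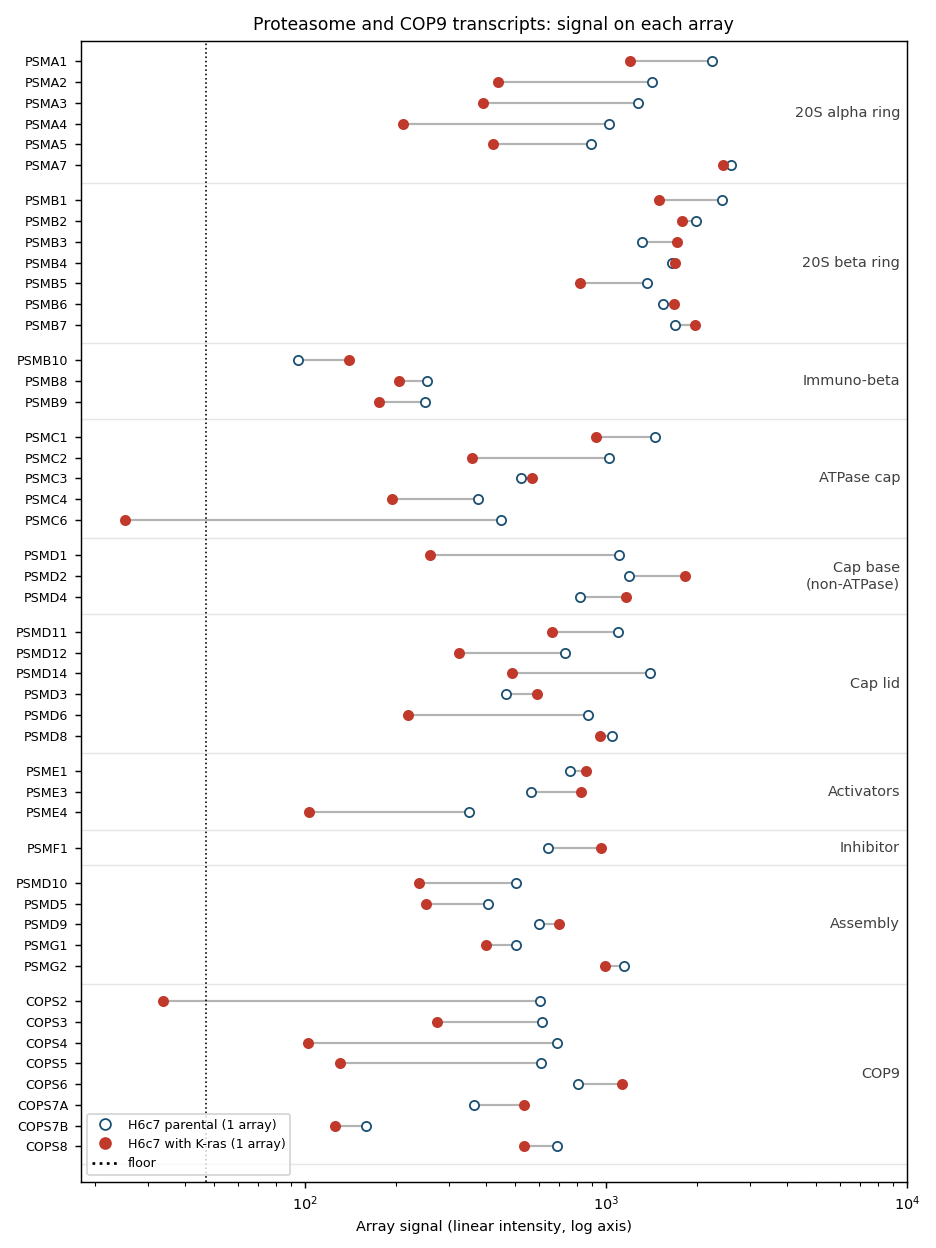
Signal of each proteasome and COP9 gene on the parental array (open blue circles) and the K-ras array (filled red circles), 1 array each, on a log axis, by role, with the floor of 46.9 dotted. The alpha ring genes PSMA2 to PSMA5 sit far to the left on the K-ras array, the beta ring genes stay close together, and PSMC6 and COPS2 cross the floor.

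Promoters are shown for 3 proteasome genes of different roles that were at least 2-fold lower and for 3 that were not. RefSeq promoters of GRCh38.p14 were matched for 41 of the 47 genes, and the 250 bases before the start were searched on both strands for 4 motifs. The 4 did not overlap each other in any of the 41 promoters. The ETS site core CGGAAG, bound by ETS factors, was present in 19 of 41 (46.3%), against 16.8% of 27305 promoters. It was in 10 of the 15 matched lower genes and 9 of the 26 others. The antioxidant response element core TGACNNNGC, read by the NFE2L1 and NFE2L2 factors, was in 12 of 41 (29.3%), against 11% of all promoters, with 3 of the 15 lower genes and 9 of the 26 others. The CCAAT box was in 19 members (46.3%), against 33% of all promoters, with 9 of the 15 and 10 of the 26. The interferon response element core GAAANNGAA was in 3 members, PSMA4, PSMB4 and PSMB10 (7.32%), against 7.06% of all promoters. The 27305 promoters were not limited to genes measured on the array, so the shares are not matched for expression. A match of letters is a description of these windows and not evidence of binding.

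The promoters below run 5′ to 3′ along the gene. PSMA4 (chr15:78540155-78540404 on the plus strand), PSMC6 (chr14:52706950-52707199 on the plus strand) and PSMD14 (chr2:161308175-161308424 on the plus strand) belong to an alpha ring, an ATPase and a lid gene that were all at least 2-fold lower. PSMB4 (chr1:151399323-151399572 on the plus strand) is a beta ring gene with nearly equal signals, and its promoter carries a pair of ETS cores. Capitals mark the ETS core on either strand.
PSMA4: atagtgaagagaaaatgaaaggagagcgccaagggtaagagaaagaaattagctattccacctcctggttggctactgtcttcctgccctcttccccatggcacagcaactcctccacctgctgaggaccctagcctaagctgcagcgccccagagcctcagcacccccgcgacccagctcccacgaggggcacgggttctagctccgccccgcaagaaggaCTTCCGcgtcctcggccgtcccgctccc
PSMC6: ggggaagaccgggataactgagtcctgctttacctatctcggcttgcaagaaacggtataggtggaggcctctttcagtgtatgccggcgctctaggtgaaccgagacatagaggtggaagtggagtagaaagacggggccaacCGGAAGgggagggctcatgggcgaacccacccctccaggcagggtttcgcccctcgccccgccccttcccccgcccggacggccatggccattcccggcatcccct
PSMD14: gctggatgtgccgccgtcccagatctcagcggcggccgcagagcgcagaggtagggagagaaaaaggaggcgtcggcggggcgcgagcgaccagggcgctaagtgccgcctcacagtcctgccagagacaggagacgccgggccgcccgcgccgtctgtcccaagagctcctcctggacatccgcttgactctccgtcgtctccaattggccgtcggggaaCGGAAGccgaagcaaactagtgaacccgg
PSMB4: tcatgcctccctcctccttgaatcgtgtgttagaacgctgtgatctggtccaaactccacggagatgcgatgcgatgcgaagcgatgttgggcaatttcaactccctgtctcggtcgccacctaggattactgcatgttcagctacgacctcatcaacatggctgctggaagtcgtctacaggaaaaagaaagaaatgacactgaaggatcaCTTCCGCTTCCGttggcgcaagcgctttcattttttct

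PSMD3 (chr17:39980557-39980806 on the plus strand) and PSME1 (chr14:24135944-24136193 on the plus strand) carry an antioxidant response element core, in capitals here, and neither was lower in K-ras cells.
PSMD3: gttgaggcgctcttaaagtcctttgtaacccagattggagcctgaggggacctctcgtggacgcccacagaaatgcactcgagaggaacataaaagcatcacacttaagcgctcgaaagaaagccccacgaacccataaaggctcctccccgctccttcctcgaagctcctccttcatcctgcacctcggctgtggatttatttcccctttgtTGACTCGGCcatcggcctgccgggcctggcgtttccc
PSME1: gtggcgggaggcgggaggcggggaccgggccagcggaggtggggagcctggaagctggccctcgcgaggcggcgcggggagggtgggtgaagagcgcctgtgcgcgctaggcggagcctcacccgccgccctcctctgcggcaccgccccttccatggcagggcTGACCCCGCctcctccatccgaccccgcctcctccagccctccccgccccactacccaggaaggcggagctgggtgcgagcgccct

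Genes of the alpha ring of the 20S core were mostly lower in K-ras cells and those of the beta ring were not, a difference between the rings that was not tested. All 6 measured alpha genes had a ratio below 0. At least 2-fold lower were 4 of the 6, against 14.4% of all measured genes. The alpha median log2 ratio was -1.39. Of the 7 beta genes none was at least 2-fold lower, and the median was 0.03. PSMA4 had the largest difference, with signals of 1023 in parental and 211 in K-ras cells, 4.85-fold lower. PSMA3 went from 1281 to 391 (3.28-fold lower) and PSMA2 from 1424 to 438 (3.25-fold lower). A dimmer PSMA2 probe set gave a bound at a log2 ratio of -1.49. Of the probe sets annotated to both PSMA2 and C7orf25, counted for neither, one read 74.9 and 57.9 (log2 ratio -0.37) and the other was under the floor in both lines. PSMA5 had signals of 894 and 423, a log2 ratio of -1.08, just past the threshold. PSMA1 narrowly missed the threshold with the probe set used, from 2244 to 1202 (log2 ratio -0.90, an _x_at probe set that can pick up related transcripts), while the others gave -1.08 and -1.10. PSMA7 stood apart from the other alpha genes, at 2613 and 2440 (log2 ratio -0.10, also _x_at), with -0.53 in its other probe set. A pair of probe sets annotated to both PSMA6 and the RNase P gene PRORP, counted for neither, gave log2 ratios of -1.41 and -0.39.

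The beta ring holds the cutting sites, and its transcripts were among the most even of the complex. The catalytic subunit genes PSMB6 and PSMB7 had signals of 1542 and 1695 in parental and 1678 and 1979 in K-ras cells, log2 ratios of 0.12 and 0.22. The remaining catalytic subunit gene, PSMB5, was lower, from 1368 to 820 (log2 ratio -0.74). The structural subunit PSMB4 read 1662 and 1702, and PSMB3 1314 and 1727. PSMB1 had a log2 ratio of -0.69, with -0.81 in a second probe set. PSMB2 had a log2 ratio of -0.15, but a much dimmer _x_at probe set gave 0.96. The beta ring median is too near 0 to have a direction, and it lay between -0.15 and 0.23 under the other settings tried. Under each of those settings no beta gene was at least 2-fold lower, while 3 to 5 of the 4 to 6 alpha genes measured there were.

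The inducible beta subunits were dim beside the constitutive ones. Signals of different probe sets are not on a common scale, so this describes the array and not the amounts of RNA. PSMB8, which replaces PSMB5, read 254 in parental and 205 in K-ras cells (log2 ratio -0.30). PSMB9, which replaces PSMB6, read 250 and 176 (-0.51). PSMB10, which replaces PSMB7, read 95 and 140, a ratio on the other side (0.56). None of the 3 passed 2-fold. Among 9 measured genes of peptide supply to MHC class I, a list of partners, 1 was at least 2-fold lower and none higher. Over all measured genes 14.4% were lower and 9.97% higher. The median log2 ratio of the list was -0.22. Its lower gene was the leucine aminopeptidase LAP3, from 629 to 262. The peptide transporter genes TAP1 and TAP2 had log2 ratios of 0.78 and 0.41, and IRF1, an interferon-responsive regulator, 0.12. The trimming peptidase ERAP2 was under the floor in K-ras cells (a bound at -0.87). The peptidase TPP2 had -0.72 with the probe set used, but a bound of -1.76 in another, which read 159 and 12.6.

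**Figure D2:**
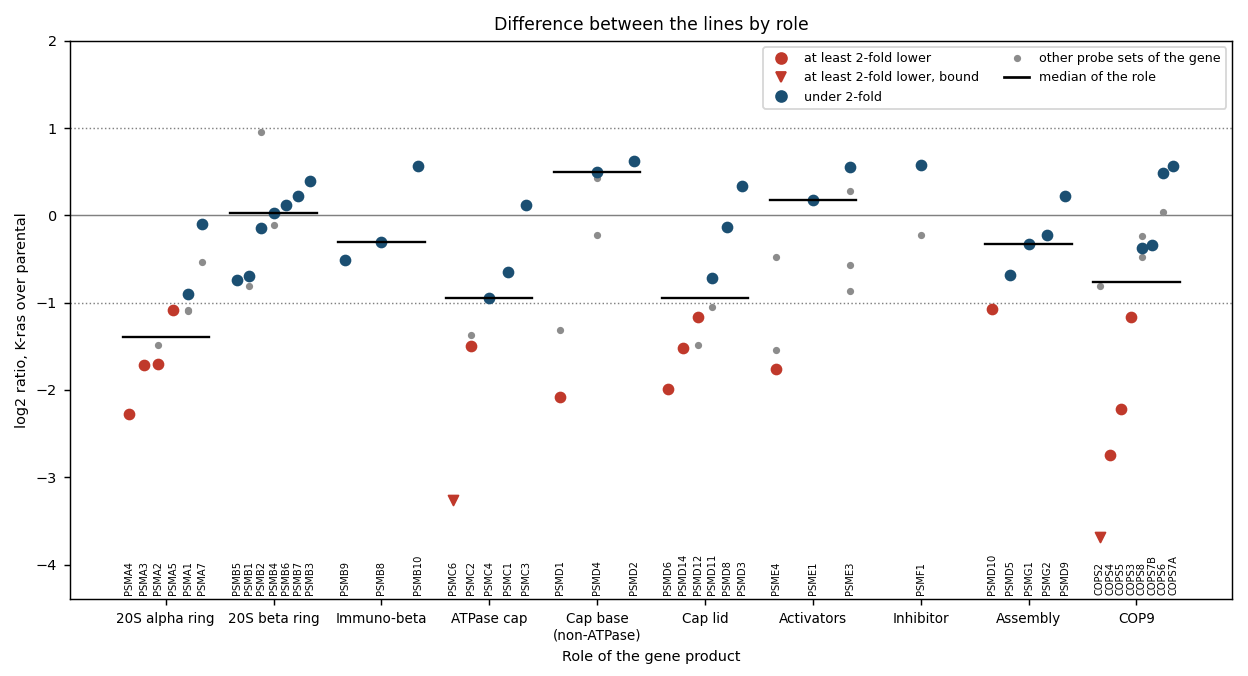
Log2 ratio of K-ras over parental signal (vertical axis) for each gene, grouped by role, with 1 array per line. Red marks at least 2-fold lower, triangles are bounds, small grey dots are other probe sets of the same gene and bars are medians; the alpha ring median lies at -1.39 and the beta ring median at 0.03, and no gene reaches 2-fold higher.

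Among the cap's ATPases, which unfold the substrate and thread it into the core, 2 of 5 measured genes were at least 2-fold lower. The share over all measured genes was 14.4%. The median log2 ratio of the 5 was -0.95. PSMC6 had the largest difference of all proteasome genes. It read 448 in parental and 25.3 in K-ras cells, the latter under the floor, so it was at least 9.56-fold lower. It has a single probe set, so no second reading exists. PSMC2 went from 1022 to 360 (2.83-fold lower), and a dimmer probe set gave a bound at -1.37. PSMC4 (375 and 194, log2 ratio -0.95) and PSMC1 (1455 and 924, -0.65) were lower by less than 2-fold. PSMC3 had nearly equal signals of 524 and 570. The ATPases form a single ring in the protein complex, but their transcript ratios spread from -3.26 to 0.12.

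Of the non-ATPase cap genes, 4 of 9 were at least 2-fold lower, against 14.4% of all measured genes. The median log2 ratio of the 9 was -0.72. In the base, the scaffolds PSMD1 and PSMD2 went opposite ways. PSMD1 read 1105 in parental and 261 in K-ras cells (4.23-fold lower), with -1.31 in its other probe set. PSMD2 read 1196 and 1836, a log2 ratio of 0.62, the highest of all 47 genes and still under 2-fold. The ubiquitin receptor PSMD4 had a log2 ratio of 0.50 on an _x_at probe set, and 0.43 and -0.23 on its others. ADRM1, another ubiquitin receptor of the base, whose name lies outside the pattern, read 1108 and 1701 (0.62).

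In the lid, which removes ubiquitin chains, 3 of 6 genes were at least 2-fold lower, against 14.4% of all measured genes. PSMD14, the enzyme that cuts the chain off, read 1399 in parental and 489 in K-ras cells, 2.86-fold lower. PSMD6 read 873 and 220, 3.97-fold lower. PSMD12 read 732 and 325, a log2 ratio of -1.17, with -1.49 in its other probe set. The scaffold subunits PSMD11 (-0.72, with a bound of -1.05 in a dimmer probe set), PSMD8 (-0.13) and PSMD3 (0.34) were within 2-fold. SEM1, a small lid subunit outside the name pattern, was lower too, from 703 to 283 (log2 ratio -1.31).

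The activators PSME1 and PSME2 form the interferon-inducible PA28 cap, and PSME3 and PSME4 form nuclear caps of their own. PSME1 had signals of 759 and 858, a log2 ratio of 0.18. The probe set annotated to both PSME2 and the microRNA gene MIR7703 read 1204 in parental and 771 in K-ras cells (log2 ratio -0.64), and cannot be credited to PSME2 alone. PSME4 read 350 and 103 (3.38-fold lower), with -1.54 and a bound of -0.48 in its other probe sets. PSME3 had no settled direction, with log2 ratios of 0.55 on the brightest probe set, an _x_at, and -0.57, 0.28 and -0.87 on the others. The median of the 3 measured activators was 0.18 and became -0.79 without _x_at and _s_at probe sets, which leaves out PSME3. It was also below 0 with the median over probe sets (-0.14) and with gene span removed (-0.07), so it has no settled direction. The inhibitor PSMF1 had a log2 ratio of 0.58, but -0.22 in another probe set.

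Assembly genes were mostly within 2-fold. Of 5 measured, 1 was at least 2-fold lower, against 14.4% of all measured genes, and the median log2 ratio was -0.33. The lower gene was PSMD10, a chaperone of the cap's base also called gankyrin (502 and 239, 2.09-fold lower). The base chaperones PSMD5 and PSMD9 had log2 ratios of -0.68 and 0.22. PSMG1 and PSMG2, which help to build the alpha ring, had -0.33 and -0.22. The transcript of POMP, the factor that matures the beta ring and whose name lies outside the pattern, went from 1360 to 515, a log2 ratio of -1.40. PAAF1, another base chaperone, had -0.51.

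Genes of the COP9 signalosome ranged widely, from log2 ratios of -3.68 to 0.56. At least 2-fold lower were 4 of the 8 measured genes and none was higher, against 14.4% and 9.97% of all measured genes. The median log2 ratio of the 8 was -0.77. COPS2 read 602 in parental and 33.8 in K-ras cells, the latter under the floor, which makes it at least 12.8-fold lower. A dim second probe set, at 82 and 1.1, gave a bound at a log2 ratio of -0.81, the largest drop the floor allows from 82. COPS4 read 689 and 102, 6.73-fold lower. COPS5, the catalytic subunit that cuts NEDD8 off cullins, read 608 and 131, 4.65-fold lower. COPS3 read 615 and 275, 2.24-fold lower. The other subunits differed little. COPS6, the partner of COPS5, had 0.48 and, in a dimmer probe set, 0.04, COPS7A had 0.56 and its close relative COPS7B -0.34. COPS8 gave -0.37, -0.48 and -0.24 across its brighter probe sets. GPS1, the first signalosome subunit, named outside the pattern, read 207 and 258 (0.32).

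The lid and the signalosome are built from matching subunits, so counterparts could be set side by side, a comparison chosen after the values had been seen. The metalloprotease pair PSMD14 and COPS5 was lower in both complexes, with log2 ratios of -1.52 and -2.22. PSMD12 and COPS4 were also lower in both (-1.17 and -2.75). PSMD8 and COPS8 were both within 2-fold (-0.13 and -0.37). The other pairs differed in size or sign, with PSMD11 at -0.72 and COPS2 at -3.68, PSMD6 at -1.99 and GPS1 at 0.32, and PSMD3 at 0.34 and COPS3 at -1.16.

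The translation factor eIF3 is another complex of the same build. It had 4 of 12 measured genes at least 2-fold lower and 0 higher, against 14.4% and 9.97% of all measured genes. The median log2 ratio of the 12 was -0.33. EIF3E had -3.35, EIF3A -1.96, EIF3M -1.39 and EIF3J -1.22, while the remaining 8 lay between -0.74 and 0.77.

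Partners of the signalosome were lower in part. In the list of cullins and neddylation genes, 7 of 19 measured genes passed 2-fold on the lower side and 0 on the higher. Over all measured genes these shares were 14.4% and 9.97%. The median of the list was -0.84. Both subunits of the enzyme that activates NEDD8 were among the 7. NAE1 read 844 in parental and 142 in K-ras cells (log2 ratio -2.57), and UBA3 read 139 and 33.5, a bound of -1.56. CAND1, which exchanges the substrate receptors of cullins, read 295 and 56.9 (5.18-fold lower), with -2.23 and -2.13 in its other probe sets. CUL5 gave a bound of -2.05, with a bound of -0.41 in a dimmer probe set, and the neddylation cofactor DCUN1D1 a bound of -1.62. CUL4B also gave a bound, at -1.17, with -0.25 and a bound of -1.67 in its other measured probe sets. The scaffold CUL1 had -1.39, while CUL3 had -0.83 and NEDD8 itself 0.49.

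Factors that bind the proteasome and ubiquitin genes were mostly within 2-fold. Among 11 measured proteasome-bound factors, 2 were at least 2-fold lower and 0 higher, against 14.4% and 9.97% of all measured genes. The median of the 11 was -0.31. The 2 lower factors were UCHL5, a deubiquitinase on the cap (418 and 124), and the ubiquitin ligase UBE3A (428 and 153). The deubiquitinase USP14 had -0.77, with -1.29 in another probe set, and TXNL1 -0.57. The polyubiquitin gene UBB had -0.93, the activating enzyme UBA1 0.50 and its relative UBA6 a bound of -0.56, so none of the 3 measured ubiquitin genes passed 2-fold.

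Of 7 measured genes listed as regulators of proteasome genes, 1 was at least 2-fold higher and 1 lower. The shares over all measured genes were 9.97% and 14.4%. These counts do not set the list apart, and its median was -0.01. The higher one was NFE2L1, the transcription factor known to raise proteasome genes when the proteasome is impaired. It read 605 in parental and 1819 in K-ras cells, 3.01-fold higher, with 1.80 and 1.77 as the log2 ratios of its other probe sets. Its relative NFE2L2 read 462 and 190, a log2 ratio of -1.28. Nuclear respiratory factor NRF1, a gene distinct from NFE2L1 and in the list only by choice of its members, had 0.61. NFYA, which binds CCAAT boxes, had 0.33. NGLY1, an enzyme that NFE2L1 needs for its activity, had -0.05, and STAT3 -0.01. NFE2L3 read 53.3 and 45, near the floor in both lines.

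**Figure D3:**
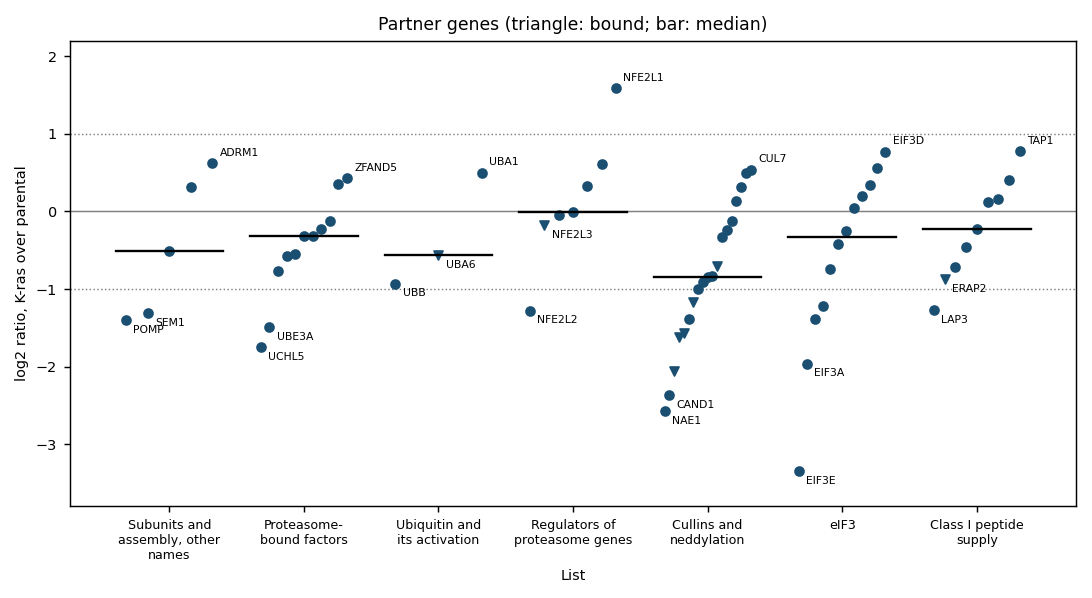
Log2 ratio of K-ras over parental signal (vertical axis) for partner genes in 7 lists, with 1 array per line. Triangles are bounds and bars are medians; NFE2L1 lies at 1.59, the one gene at least 2-fold higher, and EIF3E at -3.35 is the lowest.

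The lower members had longer genes. The 16 genes at least 2-fold lower spanned 7.34 to 116 kb of the genome, with a median of 27.3 kb, and the other 31 spanned 2.33 to 139 kb, with a median of 10.6 kb. At a division of 10 kb, chosen after the values had been seen, 1 of 15 shorter members (6.67%) was at least 2-fold lower, against 5.11% of 1585 shorter measured genes. Of 32 longer members 15 (46.9%) were, against 16.8% of 6106 longer measured genes. Across the 49 members the log2 ratio and log10 span had a Pearson correlation of -0.41 and a Spearman correlation of -0.43. Over 7691 measured genes these were -0.22 and -0.24. These are descriptions over genes of the same 2 arrays, which are not independent replicates. PSMD10, at 7.34 kb, is the one short gene that was lower, and PSMB7 (62 kb), PSMF1 (59 kb) and PSMG2 (67 kb) are long genes that were not. With the linear relation to span removed across all measured genes, 15 of the 16 were still at least 2-fold lower, PSMA5 being the exception. The share over all measured genes was then 11.7%. The relation removed was that of all measured genes, which was weaker than among the members (Pearson -0.22 against -0.41). Whether span or RNA quality has a part in the difference was not tested. The median GC content of the promoters was 60.8% in the lower and 61.6% in the other members, against 58% over all promoters.

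**Figure D4:**
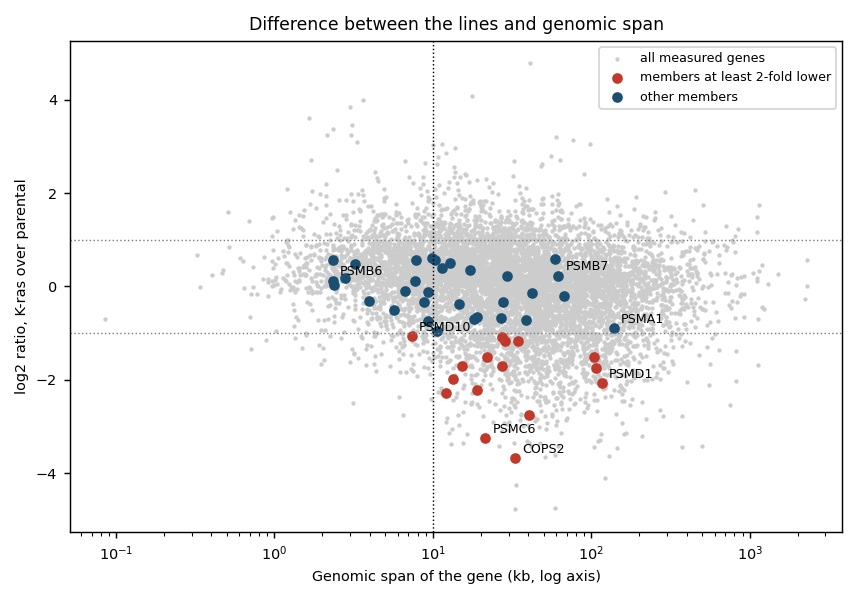
Log2 ratio of K-ras over parental signal (vertical axis) against the genomic span of the gene in kb (log axis), with all measured genes in grey, lower members in red and other members in blue. Right of the dotted line at 10 kb lie 15 of the 16 lower members.

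Repeat readings within a gene are technical and come from probe sets at different places of the transcript. Over 1671 genes with several probe sets that passed the floor in both lines, probe sets of a gene differed in log2 ratio with a standard deviation of 0.46. Among 14 of the 47 subunit and assembly genes with several such probe sets, 9 had the same sign in each, and the 5 exceptions, PSMB2, PSMB4, PSMD4, PSME3 and PSMF1, were all within 2-fold. Of the 16 lower members 6 had another measured probe set, and in all 6 the others were also below 0. The calls of PSMA5 and PSMD10 lie within 0.46 of the threshold on the lower side, as do those of COPS3 and PSMD12. Those 4 were no longer at least 2-fold lower when the arrays were scaled on 100 maintenance probe sets, where 12 of the 47 members were, against 11.1% of all measured genes. PSMD10 was also lost with the floor as a pseudocount.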

How the data were processed

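Each of the 2 lines is represented by 1 Affymetrix array, named by the labels as U133A. The authors deposited linear intensities for 22283 probe sets, 68 of them controls. How these were made from the scans is not stated in the sources at hand. With 2% trimmed at each end, both columns average 150.06, so they were taken as already scaled and only rescaled to exactly equal trimmed means.

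The platform annotation gives 1 gene symbol for 19071 probe sets, several for 1043 and none for 2169. Gene numbers of 19059 matched GRCh38.p14. The probe set with the highest mean log2 signal stood for a gene. As floor served the median of the brighter array. A gene below it on both arrays was not measured, and one below it on 1 array gave a bound against the floor. Medians hold such genes at their bound. Members are all accounted for, and of each partner list the 4 largest ratios are named, with further genes chosen after their values were seen. Genes at least 2-fold apart were counted. With 1 array per line there is no test, and precision is limited by that number. The members, lists and alternatives were chosen with earlier results of these data known. The procedure was tested on simulated data with differences set well past 2-fold in genes well above the floor. That test does not show how calls near 2-fold or near the floor behave. Promoters came from RefSeq. Tools were matplotlib 3.10.9, statsmodels 0.14.6, scipy 1.17.1, pandas 2.3.3 and numpy 2.4.6 under Python 3.11.15.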

Additional observations from a re-analysis of the deposited data

How the results depend on the processing

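Under 12 other settings (deposited values, quantile normalization, centring on the median, loess with a span of 0.3, scaling on maintenance probe sets, a floor at the 30th or the 70th percentile, none, or used as pseudocount, medians over a gene's probe sets, no _x_at or _s_at probe sets, and gene span removed) the members at least 2-fold lower numbered 12 to 18 of 47 (13 of 32 without _x_at or _s_at probe sets), and none was at least 2-fold higher in any of them. Of all measured genes, 10.9% to 16.5% were lower and 6.1% to 20.3% higher under these settings. A 3-fold threshold left 10, against 6.24% of all measured genes. With the maintenance probe sets as scale, the median over all genes above the floor in both lines moved from 0.10 to 0.26. The median of the activators became -0.79 without _x_at and _s_at probe sets. No other median of a role moved by more than the spread between probe sets, and no called member changed sign. The bounds of COPS2 and PSMC6 depend on the floor by construction, with log2 ratios from -4.15 with no floor to -2.31 and -1.88 at the 70th percentile. COPS2 rests on an _s_at probe set. Without such probe sets it gave a bound of -0.81, from signals of 82 in parental and 1.1 in K-ras cells. The floor allows no larger drop from that parental signal. No paired analysis was possible because each line has 1 array. Signals near the floor, as for COPS2, PSMC6 and UBA3 on the K-ras array, limit what can be said of the size of their differences.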
